A study of Physcomitrium patens with 21 samples.

Results

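A single gene model of the moss Physcomitrium patens, Pp3c26_8250V3.1, was specific to the auxin experiment of a series on auxin and decapitation in leafy shoots. It was chosen on counts of read pairs relative to the total of each library (CPM). The rule asked for means of 5 CPM or more in both groups of the auxin experiment, and for the smaller of them to be at least 8 times the largest mean of the decapitation groups plus 0.1 CPM. Of 32926 gene models, 15385 had both means at 5 CPM or more, and 1 of these passed the ratio. The rule allowed up to 300 genes. The count tables pair no identifier with a gene name, and RefSeq's gene list for assembly ASM5946719v1 contains none of these identifiers, so the gene is described by its identifier, with no name, role, coordinate or sequence.

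Polyadenylated RNA from stems of wild-type gametophores (Gransden strain) was sequenced in 21 libraries, 3 biological replicates in each of 7 groups. In the decapitation series, stems were collected at 0, 2, 6, 12 and 24 h after the shoot tip was cut off, and each replicate pooled 5 to 10 gametophores from colonies 4 weeks old. In the auxin experiment, gametophores were given 10 µM indole-3-acetic acid (IAA) or the solvent alone (mock) for 30 min. Both experiments used the same strain, medium, temperature (23 °C) and day length (16 h light, 8 h dark). The 24 h label also carries the words biotic stress, with no agent named, and the values used here give neither a colony age nor a number of pooled gametophores for the auxin experiment. The study's design pairs mock with IAA and 0 h with the later times. It names no control that joins both experiments. A difference between them therefore cannot be told apart from any difference in age, handling, hour of collection or library batch. The same holds for any difference in the tissue taken or in the presence of the shoot tip.

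Gametophores are the leafy shoots that form the main body of a moss, and each grows from a single apical cell. Auxin is a plant hormone made in growing tips. In the cell nucleus it brings TIR1/AFB receptors together with Aux/IAA repressor proteins, which are then degraded, so that auxin response factors can act on their target genes within minutes. In moss shoots, auxin from the tip restrains the formation of new branches lower on the stem, and cutting off the tip is the classical way to remove that source.

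Over all 21 libraries the counted read pairs ran from 18995348 to 32039288, and in the auxin experiment from 21054498 to 24894463. The mapped share of reads ran from 94.6% to 96.2%, and 11.6% to 13.6% of the mapped reads were removed as equally good matches to several places. Two-sided 95% counting intervals given here are exact Poisson intervals, and they cover counting error alone.

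Pp3c26_8250V3.1 was present at a moderate level in every library of the auxin experiment and close to absent from every library of the decapitation series. The mock libraries stood at 9.93, 8.15 and 13.0 CPM, from 245, 200 and 324 read pairs. The IAA libraries stood at 6.08, 6.002 and 6.10 CPM, from 128, 137 and 130 pairs. All 3 mock libraries lay above all 3 IAA libraries, and replicate 3 of mock was the highest of the whole series.

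In the decapitation series the same gene had 53 pairs over 15 libraries and 328448735 counted pairs, against 1164 pairs over the 139274366 counted pairs of the auxin experiment. The 0 h libraries held 8, 7 and 1 pairs, which are 0.379, 0.335 and 0.0470 CPM. At 2 h there were 3, 5 and 13 pairs, or 0.145, 0.252 and 0.623 CPM. The library with 13 pairs was the highest of the decapitation series, and it was still well below any library of the auxin experiment.

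From 6 h on, no library of Pp3c26_8250V3.1 held more than 5 pairs. The 6 h libraries had 1, 4 and 1 pairs, or 0.0416, 0.185 and 0.0409 CPM. The 12 h libraries had 1, 1 and 2 pairs, or 0.0432, 0.0507 and 0.0961 CPM. The 24 h libraries had 1, 5 and 0 pairs, or 0.0526, 0.262 and 0 CPM. For the library without a pair, the 95% counting interval reached up to 0.115 CPM. At its depth 3 pairs would be 0.0936 CPM. All 3 libraries of 2 h lay above all 3 of 12 h, and every other pair of times overlapped.

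**Figure D1:**
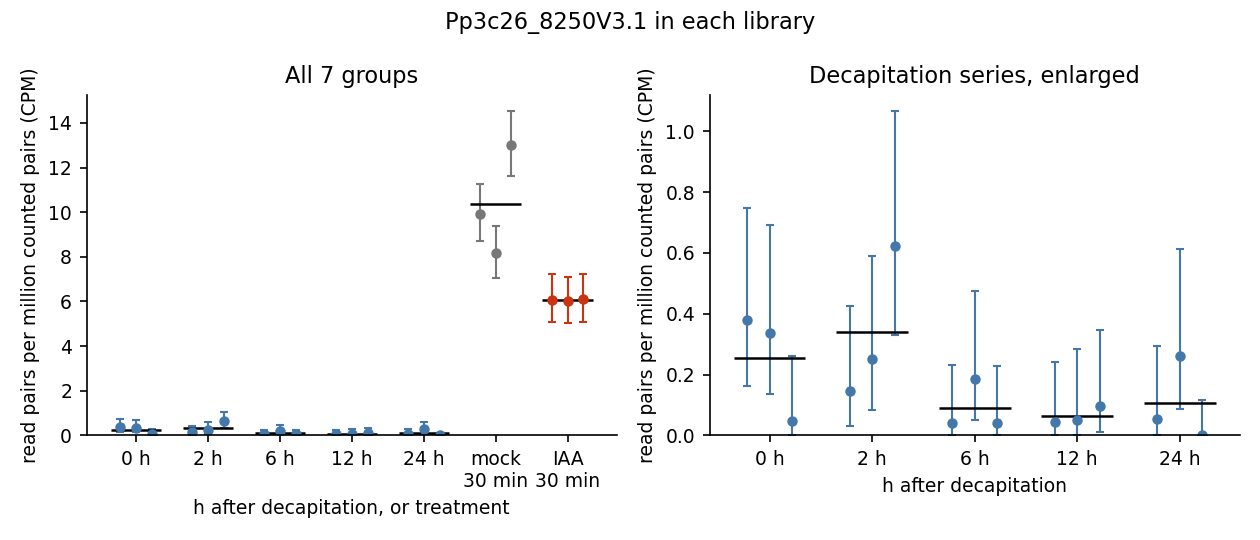
Level of Pp3c26_8250V3.1 in each library, in CPM, for all 7 groups on the left and for the decapitation groups on an enlarged axis on the right. Points are libraries, vertical bars exact 95% Poisson counting intervals and black lines group means. Mock libraries lie between 8.15 and 13.0 CPM, IAA libraries between 6.002 and 6.10 CPM, and no decapitation library passes 0.623 CPM.

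The rule was built on these group means, so the gap between the experiments is a description and has no test. Mean levels were 10.4 CPM ± 2.46 in mock and 6.06 CPM ± 0.0527 in IAA. In the decapitation series they were 0.340 CPM ± 0.251 at 2 h, 0.254 CPM ± 0.180 at 0 h, 0.105 CPM ± 0.139 at 24 h, 0.0892 CPM ± 0.0831 at 6 h and, lowest of all, 0.0634 CPM ± 0.0286 at 12 h (SD, n = 3 each). This is the order from high to low, and within the decapitation series each group differed from its neighbour by less than the larger SD of the pair. The mock mean was 40.9 times the 0 h mean, and the IAA mean was 23.9 times the 0 h mean. In bulk stems, fewer cells that express a gene and less of its RNA per cell cannot be told apart.

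The ratio of Pp3c26_8250V3.1 under the rule was 13.8, from the IAA mean as the smaller mean and the 2 h mean as the largest of the decapitation groups. Library by library, the lowest of the auxin experiment, at 6.002 CPM, was 9.64 times the highest of the decapitation series, at 0.623 CPM. These are the values behind the means that the rule used, so this describes the gap and gives it no separate support. A single library weighed on the ratio. Without replicate 3 of 2 h it was 17.1, and without replicate 1 of 2 h it was 11.3, the highest and lowest values when any 1 of the 21 libraries was left out. With 0.5 CPM added in place of 0.1 CPM, the ratio fell below the threshold, to 7.21, because the addition then exceeded the level it was added to.

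**Figure D2:**
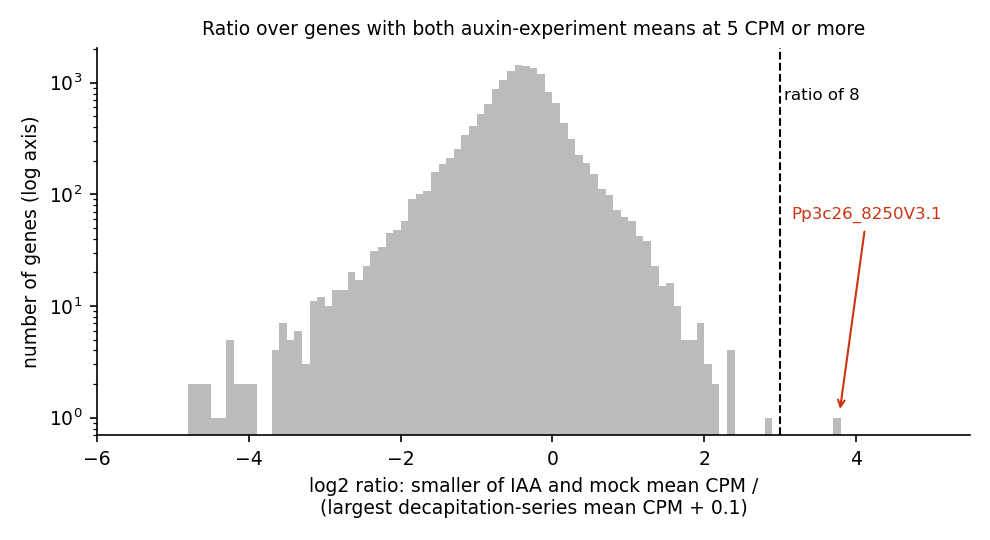
Number of genes (log axis) by the log2 of the rule's ratio, over the 15385 genes with both means of the auxin experiment at 5 CPM or more. The dashed line marks the ratio of 8. Pp3c26_8250V3.1, at a ratio of 13.8, is alone beyond it, and the next gene stands at 7.08.

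Few other genes came near. Over the 15385 genes the median ratio was 0.745 and the 99th percentile 2.20, and 230 genes (1.495%) reached a ratio of 2. The 3 genes just below the threshold were Pp3c16_570V3.1 with a ratio of 7.08, Pp3c1_2040V3.1 with 5.24 and Pp3c4_13630V3.1 with 5.02. All 3 had at least 1.705 CPM in every decapitation library. Pp3c16_570V3.1 ranged in the decapitation series from a 24 h mean of 4.19 CPM ± 0.710 to a 6 h mean of 5.88 CPM ± 1.29, against 42.3 CPM ± 15.5 in mock and 52.1 CPM ± 20.0 in IAA (SD, n = 3 each). Pp3c1_2040V3.1 went from 16.5 CPM ± 2.36 at 0 h to its lowest mean of 9.58 CPM ± 1.68 at 12 h, against 87.1 CPM ± 2.76 in mock (SD, n = 3 each). Pp3c4_13630V3.1 went from 10.3 CPM ± 2.92 at 0 h to its lowest mean of 2.30 CPM ± 0.644 at 6 h, against 52.0 CPM ± 10.9 in mock (SD, n = 3 each). In the fit without a filter, Pp3c4_13630V3.1 was called lower than 0 h at 2, 6 and 12 h, and Pp3c1_2040V3.1 and Pp3c16_570V3.1 were called at no time (edgeR quasi-likelihood F test).

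**Figure D3:**
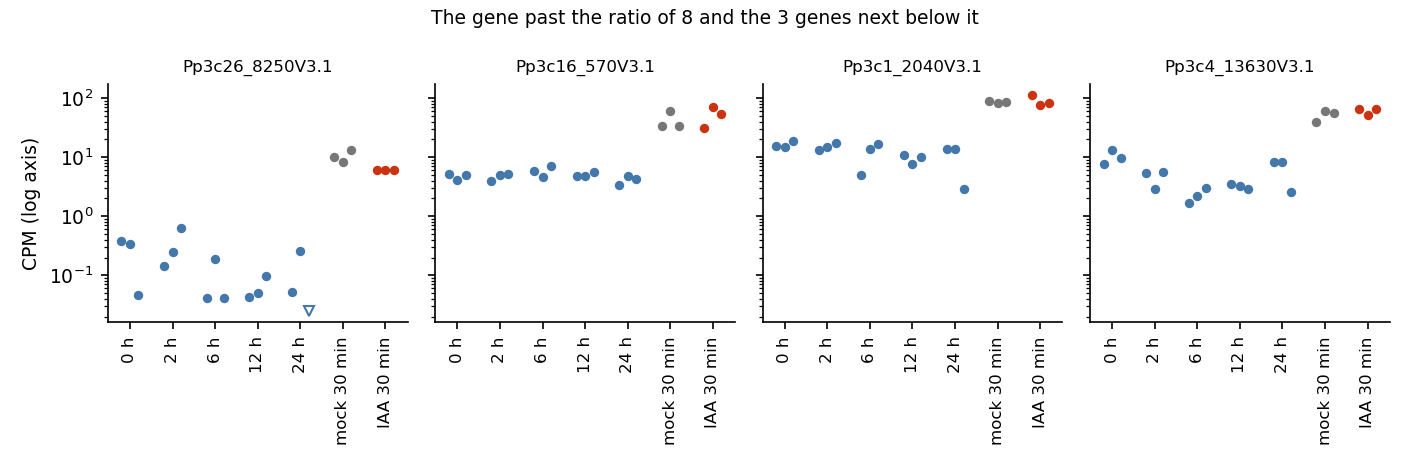
Level in each library (CPM, log axis) of Pp3c26_8250V3.1 and of the 3 genes next below the ratio threshold, by group. Points are libraries, and the open triangle marks the 24 h library with no pair. The 3 other genes stay at or above 1.705 CPM in all decapitation libraries, whereas Pp3c26_8250V3.1 stays below 1 CPM in all of them.

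The comparison of IAA with mock asks which genes the hormone affects within 30 min, and the rule did not use the difference between these groups. It did need both means at 5 CPM or more, which disfavours genes with large differences. Pp3c26_8250V3.1 was lower after IAA, by a log2 change of -0.67 ± 0.168 (SE, 95% interval -1.05 to -0.29; edgeR quasi-likelihood F test, Benjamini-Hochberg adjusted p = 0.0120). Its mock mean was 1.71 times its IAA mean in unscaled CPM, or -0.77 on the log2 scale. The scaling of library sizes (TMM) accounts for that gap, since the median of unscaled minus scaled log2 change over all tested genes was -0.10. A change of this kind was common, as 3671 of the 19989 genes tested (18.4%) were called lower in IAA and 4262 (21.3%) higher. The change was below 2-fold, and 85.7% of the tested genes had a smaller one in either direction.

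The call rested on the spread of all genes as well as on the 3 libraries per group. For a single gene, an exact two-sided permutation test of 3 libraries against 3 cannot go below 0.1, and that was the value found for Pp3c26_8250V3.1. The 3 IAA libraries were closer together than counting error alone would put them, with an SD of 0.0527 CPM where counting gives 0.529 CPM. The 3 mock libraries were wider apart, with an SD of 2.46 CPM where counting gives 0.648 CPM. Without replicate 3 of mock, the highest of them, the log2 change was -0.49 (edgeR, Benjamini-Hochberg adjusted p = 0.0349).

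**Figure D4:**
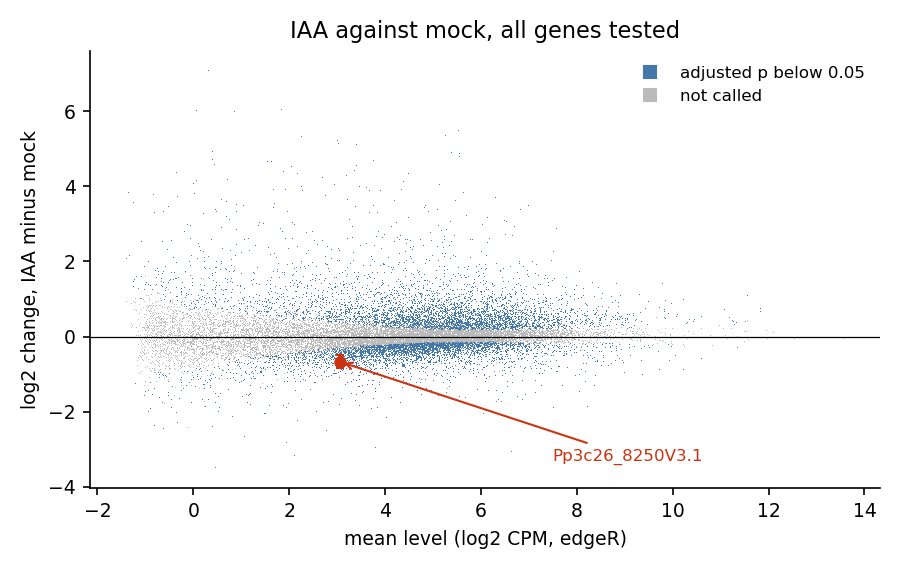
Log2 change of IAA minus mock against the mean level (log2 CPM) for the 19989 genes tested. Blue genes have an adjusted p below 0.05 and grey genes do not, and the red point is Pp3c26_8250V3.1 with its SE. It lies at -0.67, among many genes with a similar or larger decrease.

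For the 3 genes next below the threshold no difference was called. Their log2 changes of IAA minus mock were 0.40 ± 0.296 for Pp3c16_570V3.1, 0.17 ± 0.130 for Pp3c1_2040V3.1 and 0.33 ± 0.151 for Pp3c4_13630V3.1 (each ± SE). Their Benjamini-Hochberg adjusted p in edgeR was 0.309, 0.342 and 0.110. Whether they differ from Pp3c26_8250V3.1 in their response was not tested.

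Within the decapitation series Pp3c26_8250V3.1 had too few pairs to pass the filter on low counts (filterByExpr), so no test was made in the fit of the 20269 genes that passed. The values that follow come from the fit without a filter, over 26558 genes. Against 0 h the log2 change was 0.37 ± 0.714 at 2 h, with a 95% interval from -1.13 to 1.87. It was -1.57 ± 0.908 at 6 h (95% interval -3.47 to 0.34), -2.02 ± 0.988 at 12 h (-4.10 to 0.05) and -1.42 ± 0.914 at 24 h (-3.34 to 0.50), all with SE. None was called (edgeR, Benjamini-Hochberg adjusted p = 0.810, 0.209, 0.125 and 0.306). In that fit 10.1% of genes were called lower and 8.55% higher at 2 h. At 6 h these shares were 17.2% and 18%, at 12 h 18.7% and 18.2%, and at 24 h 12% and 13.4%.

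All 4 later times share the 0 h libraries, and 1 of those, replicate 3, held a single pair of Pp3c26_8250V3.1. In the joint test of all times against 0 h the gene was not called (edgeR, no filter, Benjamini-Hochberg adjusted p = 0.102), where 55.6% of genes were. Without replicate 3 of 0 h the joint test was passed (adjusted p in edgeR = 0.0481), as it was without replicate 2 of 24 h (adjusted p in edgeR = 0.0279). These unfiltered fits without 1 library were added after the values were seen. Of the 53 pairs, 37 (69.8%) came from the 0 h and 2 h libraries, which held 37.9% of the counted pairs. Whether the gene changed after decapitation therefore depended on single libraries with few pairs. The intervals above all include no change. Those at 6, 12 and 24 h also include a several-fold fall, and that at 2 h includes both a fall and a rise (log2 -1.13 to 1.87).

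Per kilobase of model length, the level of Pp3c26_8250V3.1 ranked somewhat below the middle of the detected models even where it was highest. Its model is 2253 bases long, close to the median of 2368 bases of the 15385 genes with both means at 5 CPM or more. In mock it had 4.60 RPKM (CPM per kilobase), more than 45.0% of the 24839 models detected there, and in IAA 2.69 RPKM, more than 37.8% of 24763. At 0 h it had 0.113 RPKM, more than 13.0% of 24845 models, and at 12 h 0.0281 RPKM, more than 4.72% of 24745. Of the reads assigned to the model one by one, 99.7% in the auxin experiment and all 106 in the decapitation series belonged to counted pairs.

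Of the models with the nearest identifier numbers, the 3 that had any pairs showed no such gap between the experiments. Whether neighbouring numbers are neighbours in the genome was not looked up here. The 3 models with the next lower numbers, Pp3c26_8200V3.1, Pp3c26_8220V3.1 and Pp3c26_8230V3.1, had no pair in any library. The next higher, Pp3c26_8280V3.1, stood at 12.3 CPM ± 0.796 at 0 h, 15.5 CPM ± 0.540 in mock and 12.4 CPM ± 0.450 in IAA (SD, n = 3 each). Pp3c26_8290V3.1 had 7.76 CPM ± 1.03 at 0 h and 6.76 CPM ± 0.599 in mock, and Pp3c26_8300V3.1 had 108.3 CPM ± 1.40 and 125.2 CPM ± 3.46 (SD, n = 3 each). Among the 310 models with the prefix Pp3c26 and both means at 5 CPM or more, the highest ratio after Pp3c26_8250V3.1 was 3.54, in Pp3c26_11940V3.1.

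Genes with the most similar profile were looked for over the 21 libraries, among 18829 genes whose mean reached 1 CPM, by Pearson's correlation of log2(CPM + 0.5). This search was added after the values were seen, and the correlations describe a contrast that all these libraries share, that of the experiments. The closest were Pp3c3_10750V3.1 (r = 0.979), Pp3c1_28300V3.1 (0.977), Pp3c7_18330V3.1 (0.977), Pp3c11_19760V3.1 (0.970) and Pp3c4_6260V3.1 (0.969). None of these 5 had a gap of that size. The minimum of 1 CPM left out genes of lower level, among them Pp3c9_840V3.1, described below. Pp3c7_18330V3.1 had the highest ratio of the 5, 3.59, with 11.2 CPM ± 1.65 at 2 h, 58.1 CPM ± 7.99 in mock and 43.4 CPM ± 1.73 in IAA (SD, n = 3 each). Pp3c11_19760V3.1 stood at 407.0 CPM ± 38.0 in mock, 255.0 CPM ± 21.1 in IAA and 85.7 CPM ± 4.59 for 0 h (SD, n = 3 each). It was called lower in IAA than in mock (log2 change -0.57 ± 0.0974, SE, edgeR, Benjamini-Hochberg adjusted p = 0.00170). So was Pp3c7_18330V3.1 (-0.32 ± 0.0926, SE, edgeR, adjusted p = 0.0237). Pp3c3_10750V3.1, Pp3c1_28300V3.1 and Pp3c4_6260V3.1 were not called (0.10, -0.03 and -0.08, edgeR, adjusted p = 0.20, 0.875 and 0.314). The search itself used the IAA and mock libraries, so a shared decrease was partly selected for and is no separate result.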

How the data were processed

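The deposited tables give whole-number counts of read pairs and of single reads per gene model, with no normalization. Per the submitters' processing notes reads were aligned with Bowtie2 (version, genome build and annotation not given in the sources used here). Per the file headers, reads were counted as pairs with both mates on 1 model in opposite orientation and any insert size, single mates were treated as unmapped, and reads with equally good matches were removed, so genes with near-identical copies are undercounted. Libraries were stranded, per the labels' protocols; no source used here says whether counting used the strand, so antisense overlap may not have been separated.

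CPM was computed here from unscaled library totals. All genes were fitted in R 4.3.3 with edgeR 4.0.16 (filterByExpr, TMM, quasi-likelihood F test, group as the sole term), the 6 auxin libraries and the 15 decapitation libraries apart, and called at a Benjamini-Hochberg adjusted p below 0.05. SE was taken as log2 change over the root of F. Both filtered fits were tested on simulated data, with changes placed only in genes above a minimum count. The fit without a filter, which gave the decapitation values of Pp3c26_8250V3.1, was not tested in this way. Alternatives were RLE, no filter, 1 CPM in 3 libraries, DESeq2 1.42.0, all 21 libraries in 1 fit, a replicate block, single reads, a fold of 2, other settings of the rule and leaving out each library. The gene, tests and lists were chosen with earlier results of these data known. Named genes are those past the rule, the 3 next below it and, added after the values were seen, those nearest in profile or number. Lists of genes by function or cell type could not be filled, as no identifier was paired with a name. Tissue identity was not checked for the same reason.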

Additional observations from a re-analysis of the deposited data

How the results depend on the processing

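How many genes passed the rule depended on its settings. It was 11 at a ratio of 4, 0 at a ratio of 16, 0 with 0.5 CPM added, 2 at a minimum mean of 1 CPM and 0 at a minimum mean of 10 CPM. It was 1, the same gene, with TMM-scaled CPM (ratio 15.2), with every library of the auxin experiment against every decapitation library (ratio 8.31), with single reads (ratio 13.8) and without any 1 library. The lower level of Pp3c26_8250V3.1 in IAA was called under all 7 other fits tried, with log2 changes of -0.67 to -0.65 and Benjamini-Hochberg adjusted p of 0.00260 (DESeq2) to 0.0460 (edgeR, all 21 libraries in 1 fit). Leaving out 1 library gave -0.82 to -0.49 and adjusted p in edgeR of 0.00194 to 0.0388. With a fold change of at least 2 required, the number called was 0. The replicate block gave -0.65 (edgeR, adjusted p = 0.00629). Whether replicate numbers pair the samples cannot be settled with 3 libraries per group. Correlations of deviations of same-numbered IAA and mock libraries ran from -0.09 to 0.25, and 1 of 3 passed 0.1. For differently numbered libraries they ran from -0.31 to 0.28. In the decapitation series, same-numbered libraries ran from -0.31 to 0.28, where 11 of 30 passed 0.1, and differently numbered ones from -0.35 to 0.36. In the decapitation series, without a filter, the replicate block gave an adjusted p in edgeR of 0.143 in the joint test. Leaving out 1 library moved the log2 change at 2 h between -0.40 and 0.78 (-0.12 without replicate 3 of 0 h, -0.40 without replicate 3 of 2 h), and the number called in the joint test between 0 and 1. At 6, 12 and 24 h no alternative changed the direction or led to a call, but leaving out 1 library gave log2 changes from -2.52 (6 h replicate 2 left out) to -1.16 (0 h replicate 1 left out) at 6 h, from -2.51 to -1.61 at 12 h, and from -3.29 (24 h replicate 2 left out) to -0.62 (24 h replicate 3 left out) at 24 h. These values rest on 0 to 13 pairs per decapitation library.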

Other observations

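A second gene kept the same kind of gap at a lower level. With the minimum mean lowered to 1 CPM, Pp3c9_840V3.1 passed the ratio, at 8.63, with means of 1.95 CPM ± 0.372 in mock and 3.63 CPM ± 0.993 in IAA, and its highest decapitation mean was 0.125 CPM ± 0.110, at 12 h (SD, n = 3 each). That decapitation mean was close to the 0.1 CPM that the rule adds, so the ratio of Pp3c9_840V3.1 depended strongly on this addition. The difference of Pp3c9_840V3.1 between treatments ran opposite to that of Pp3c26_8250V3.1, with a log2 change of 1.00 ± 0.258 in IAA against mock (SE; edgeR, Benjamini-Hochberg adjusted p = 0.0138). Pp3c9_840V3.1 was named after its values were seen, and the difference between the responses of both genes was not tested.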
